A study of Homo sapiens with 12 samples.

Results

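Small RNA host genes are genes whose primary transcript also carries microRNAs (miRNAs) or small nucleolar RNAs (snoRNAs). Some hosts code for proteins, and those chosen here are all long noncoding RNA genes. The genes described here are 10 of the 25369 genes in the count table: 2 miRNA hosts, MIR210HG and MIR17HG, and 8 snoRNA hosts, DANCR, GAS5, SNHG1, SNHG5, SNHG8, SNHG12, SNHG15 and ZFAS1. They were found by gene symbol, and they had been chosen by their measured hypoxia response in these same libraries, so their response to hypoxia is given as a description with no test. All 10 passed the filter on low counts in each line.

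Strand-specific poly(A)+ RNA was sequenced from 3 established human carcinoma lines, RKO (colon carcinoma) and A549 and H460 (lung carcinoma), with no genetic change or drug. Cells were kept in normoxia or in a humidified atmosphere of 1% O2 (hypoxia) for 24 h, with 2 replicates in each of 6 groups and 12 libraries in all. The labels number the replicates, and the study's methods describe them as independent biological duplicates. A549 and RKO were grown in DMEM and H460 in RPMI, so that line and medium cannot be told apart for H460. Gene counts summed to between 27350424 and 41757584 per library. The 2 A549 libraries of a group lay farther apart than those of the other lines (chi-square per degree of freedom over genes of 75.9 in normoxia and 72.1 in hypoxia, against 13.5 and 10.1 in H460), and trimmed mean of M-values (TMM) factors were 0.786 and 0.829 in H460 hypoxia against 0.963 to 1.12 elsewhere. CDX2, an intestinal transcription factor, was seen in RKO (4.10 to 7.14 RPKM, counts scaled by exon length and by the library total) and KRT7, an epithelial keratin, in A549 (1570 to 2077 RPKM), whereas the intestinal genes VIL1 and CDX1 were at 0 in RKO and the alveolar genes SFTPB and SFTPC did not pass 0.0659 RPKM in A549 or H460. The lung gene NAPSA was at 2.49 to 3.38 RPKM in A549 and 0.310 to 0.510 in H460, against at most 0.0552 in RKO. NKX2-1, another lung gene, ranged from 0 to 1.15 RPKM in H460 and reached only 0.0764 in A549. LGALS4, an intestinal gene, was at most 0.0468 RPKM in RKO and 0.503 to 1.14 in A549.

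As background, most snoRNAs of mammals lie in introns of a host gene and are trimmed from the spliced-out intron, while the joined exons leave as a separate RNA. Box C/D snoRNAs (SNORD) guide 2′-O-methylation and box H/ACA snoRNAs (SNORA) guide pseudouridylation, mostly of ribosomal RNA. Many snoRNA hosts, GAS5 among them, begin with a run of pyrimidines like ribosomal protein genes, and their spliced RNA is a known substrate of nonsense-mediated decay. MIR210HG carries miR-210, the best known hypoxia-induced miRNA and a target of HIF, and MIR17HG carries the miR-17-92 cluster, which MYC activates.

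The mature miRNAs show what each miRNA host gives rise to, and are printed 5′ to 3′ from RefSeq (GRCh38.p14) with the seed, bases 2 to 8, in capitals.
miR-210-3p: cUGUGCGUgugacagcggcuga
miR-17-5p: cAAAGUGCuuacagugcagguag
miR-20a-5p: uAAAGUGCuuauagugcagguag
miR-18a-5p: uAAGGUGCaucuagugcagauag
miR-19a-3p: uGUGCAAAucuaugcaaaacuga
miR-19b-3p: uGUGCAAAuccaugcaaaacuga
miR-92a-3p: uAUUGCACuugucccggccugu
miR-17-5p and miR-20a-5p shared the seed AAAGUGC, miR-19a-3p and miR-19b-3p shared GUGCAAA, and the miR-210-3p seed UGUGCGU was shared with no mature miRNA of MIR17HG.

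Printed next are snoRNAs of 3 hosts whose own exon row was called in no line, read from the reference genome (GRCh37) at the coordinates in the deposited table. In box C/D snoRNAs the C box (ATGATGA or GTGATGA) and the D box (CTGA) are in capitals where these letters were found.
SNORD44: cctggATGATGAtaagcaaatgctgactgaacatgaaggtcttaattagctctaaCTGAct
SNORD76: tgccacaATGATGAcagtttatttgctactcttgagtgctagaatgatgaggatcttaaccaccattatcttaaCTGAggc
SNORD80: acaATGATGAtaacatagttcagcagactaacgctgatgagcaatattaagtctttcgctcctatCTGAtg
SNORD81: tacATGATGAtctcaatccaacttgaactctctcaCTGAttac
SNORD50A: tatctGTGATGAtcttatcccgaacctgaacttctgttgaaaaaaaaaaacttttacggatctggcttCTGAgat
SNORD50B: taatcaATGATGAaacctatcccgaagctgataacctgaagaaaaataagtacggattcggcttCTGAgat
SNORD12C: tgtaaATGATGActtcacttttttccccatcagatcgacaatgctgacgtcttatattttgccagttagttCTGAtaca
SNORD44 (chr1:173835106-173835166, minus strand), SNORD76, SNORD80 and SNORD81 lie in GAS5, SNORD50A and SNORD50B (chr6:86387307-86387377, minus strand) in SNHG5, and SNORD12C (chr20:47895482-47895560, plus strand) in ZFAS1. In the GENCODE annotation lifted to GRCh37 SNORD44 was intronic in 82 of 91 GAS5 transcripts and inside an exon of 7, SNORD50B was intronic in 72 of 89 SNHG5 transcripts, and SNORD12C was intronic in 11 of 14 ZFAS1 transcripts and exonic in 0.

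The hosts are short genes. On GRCh37 MIR210HG spans chr11:565657-568457 on the minus strand with 2303 bases of exon, and MIR17HG spans chr13:92000074-92006829 on the plus strand with 5018 bases of exon. The snoRNA hosts have from 507 (SNHG5, chr6:86386725-86388451, minus) to 1118 (SNHG1, chr11:62619460-62623360, minus) bases of exon. DANCR lies at chr4:53578621-53580305 (plus), GAS5 at chr1:173833039-173837125 (minus), SNHG8 at chr4:119199917-119200978 (plus), SNHG12 at chr1:28905050-28908366 (minus), SNHG15 at chr7:45022627-45026259 (minus) and ZFAS1 at chr20:47894715-47905795 (plus).

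Counts were compared with the quasi-likelihood test of edgeR within each line, and a gene is called when its Benjamini-Hochberg adjusted p is under 0.1 and its fold change over 1.5. Levels below are in CPM (counts scaled to a common library total with TMM factors), and a log2 fold change is hypoxia over normoxia ± SE with n = 2 libraries a group. For the 10 members a call is only a label for the size and spread of that change, not a test, because this contrast chose them. In these bulk cultures a lower level in every cell and a larger share of cells with a low level cannot be told apart.

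MIR210HG was the member with the higher level in hypoxia in all 3 lines. In RKO it stood at 4.70 and 2.36 CPM in the normoxia replicates and at 40.6 and 35.8 CPM in hypoxia. In A549 the values were 8.05 and 3.04 against 26.0 and 56.4 CPM. In H460 they were 9.08 and 5.92 against 124 and 124 CPM. Every hypoxia library lay above every normoxia library of its line, and A549 hypoxia replicate 1 was the lowest of the hypoxia libraries. The log2 fold change was 4.04 ± 0.16 in H460, 3.38 ± 0.29 in RKO and 2.87 ± 0.48 in A549, or 16.5-, 10.4- and 7.31-fold. Leaving out 1 library at a time it ranged from 2.96 to 3.96 in RKO, from 2.22 to 3.74 in A549 and from 3.71 to 4.33 in H460.

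MIR17HG went the other way. RKO normoxia held 23.5 and 34.3 CPM and hypoxia 2.64 and 8.74 CPM. H460 normoxia held 41.6 and 61.3 CPM and hypoxia 9.54 and 9.46 CPM. A549 held 17.2 and 20.6 CPM in normoxia and 15.1 and 11.1 CPM in hypoxia. The groups did not overlap in any line, but the gap in A549 was small. The log2 fold change was -2.40 ± 0.43 in RKO and -2.46 ± 0.17 in H460, both called, and -0.54 ± 0.24 in A549, which was not called. The hypoxia effect in RKO differed from that in A549 by -1.83 ± 0.54, and that in A549 from that in H460 by 1.91 ± 0.54, whereas RKO and H460 differed by 0.09 ± 0.54 on the log2 scale. The RKO value rested in part on hypoxia replicate 1: it ranged from -3.51 to -1.74 when 1 library was left out.

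**Figure D1:**
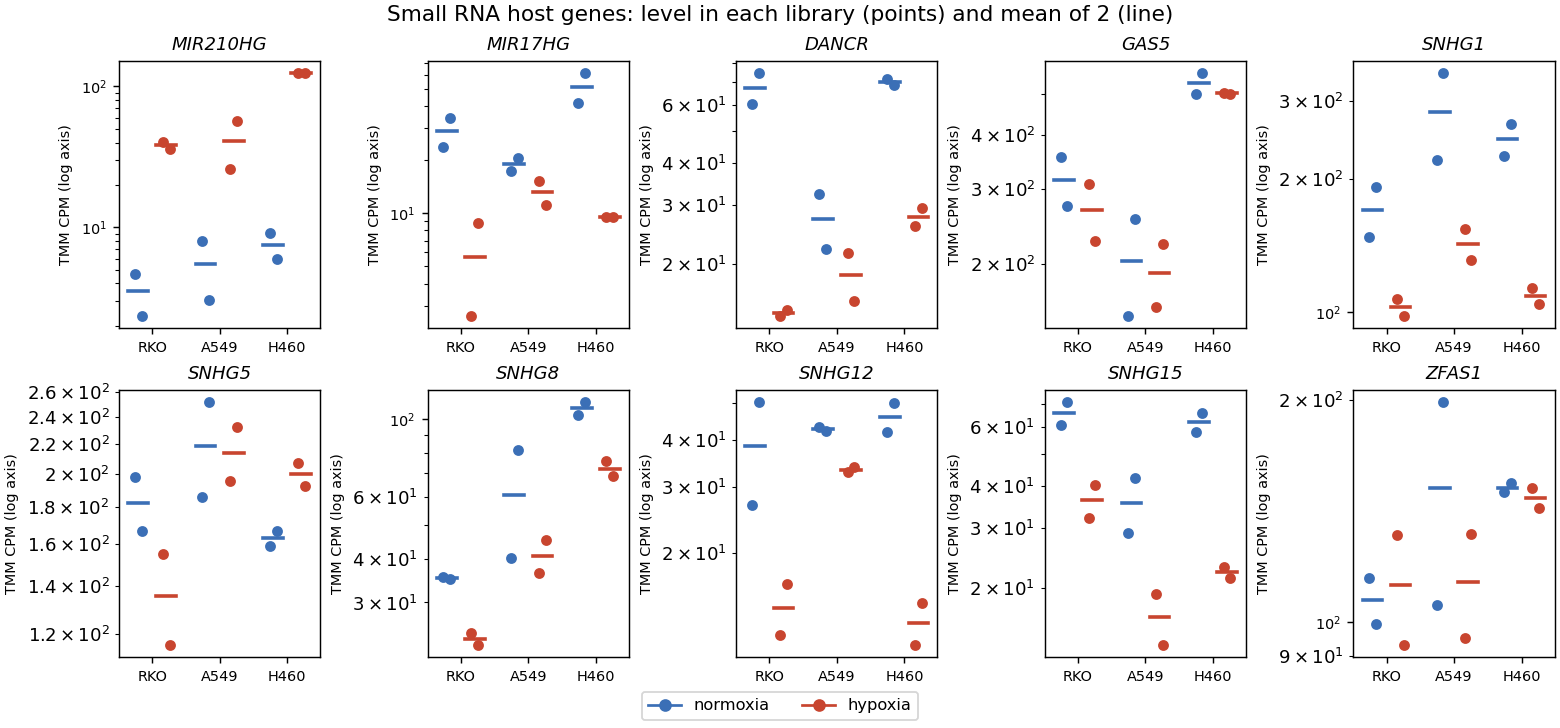
Level of each of the 10 host genes in every library (TMM-scaled CPM, log axis; blue normoxia, red hypoxia; points are libraries and the line is the mean of 2). MIR210HG hypoxia libraries (26.0 to 124 CPM) lie above all normoxia libraries (2.36 to 9.08 CPM), while GAS5 and ZFAS1 points overlap in each line.

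The within-library ratio of both miRNA hosts does not depend on how libraries are scaled. The ratio of MIR210HG RPKM to MIR17HG RPKM was 0.436 and 0.150 in RKO normoxia and 33.6 and 8.93 in RKO hypoxia. It was 1.02 and 0.322 against 3.74 and 11.1 in A549, and 0.475 and 0.210 against 28.2 and 28.6 in H460. Normoxia libraries thus had more MIR17HG per exon length in all but A549 replicate 1, and hypoxia libraries had more MIR210HG in every one. The mean log2 ratio changed by 6.49 in H460, 6.08 in RKO and 3.49 in A549, with pooled replicate SDs of 0.59, 1.23 and 1.14. Against the snoRNA hosts the log2 ratio of MIR210HG changed by 2.97 (SNHG5, A549) to 5.90 (SNHG12, H460).

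**Figure D2:**
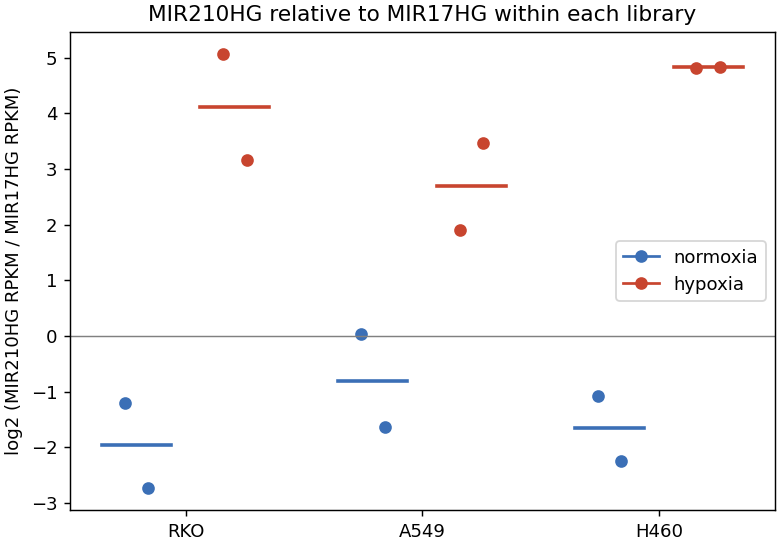
Log2 ratio of MIR210HG RPKM to MIR17HG RPKM in each library by line (points; line is the mean of 2; blue normoxia, red hypoxia). The ratio lies at or below 0.03 in normoxia and between 1.90 and 5.07 in hypoxia.

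DANCR, a snoRNA host studied for its part in keeping progenitor cells undifferentiated, was the snoRNA host with the lowest fold change in RKO. Its RKO levels were 60.3 and 74.5 CPM in normoxia and 13.9 and 14.5 CPM in hypoxia. H460 held 71.8 and 68.9 CPM in normoxia and 26.0 and 29.4 CPM in hypoxia. A549 held 32.5 and 22.2 against 21.5 and 15.4 CPM. The groups were far apart in RKO and H460 and nearly touched in A549. The log2 fold change was -2.30 ± 0.18 in RKO, -1.36 ± 0.10 in H460 and -0.58 ± 0.26 in A549, the last not called unless hypoxia replicate 1 was left out (-0.85). DANCR differed in its response between RKO and H460 by -0.90 ± 0.28.

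SNHG12, host of H/ACA snoRNAs and SNORD99, also had its smallest fold change in A549. It held 26.8 and 50.2 against 12.1 and 16.5 CPM in RKO, 43.3 and 42.3 against 32.7 and 33.8 CPM in A549, and 41.9 and 49.98 against 11.4 and 14.7 CPM in H460. No groups overlapped, and the log2 fold change was -1.49 ± 0.28 in RKO, -0.38 ± 0.18 in A549 (not called) and -1.82 ± 0.14 in H460.

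SNHG1 and SNHG15 were called lower in all 3 lines. SNHG1, which holds 8 box C/D snoRNAs, had 148 and 192 against 107 and 98.2 CPM in RKO, 221 and 346 against 154 and 131 CPM in A549, and 225 and 267 against 113 and 105 CPM in H460. Its log2 fold changes were -0.78 ± 0.17, -1.004 ± 0.23 and -1.19 ± 0.10 in that order of lines. SNHG15, host of SNORA9, had 60.8 and 70.9 against 32.3 and 40.4 CPM in RKO, 29.0 and 42.3 against 19.2 and 13.5 CPM in A549, and 58.0 and 66.0 against 23.0 and 21.4 CPM in H460. Its log2 fold changes were -0.92 ± 0.18, -1.13 ± 0.26 and -1.50 ± 0.10. Both A549 calls were lost when normoxia replicate 2 was left out (-0.65 for SNHG1 and -0.84 for SNHG15), and that of SNHG15 also without hypoxia replicate 2 (-0.90).

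SNHG8, host of SNORA24, lay just past the fold threshold. It had 35.4 and 35.1 against 24.5 and 22.7 CPM in RKO, 40.2 and 81.5 against 36.4 and 45.1 CPM in A549, and 103 and 112 against 75.7 and 68.7 CPM in H460. The log2 fold change was -0.64 ± 0.17, -0.59 ± 0.30 and -0.59 ± 0.09, called in RKO and H460. A549 groups overlapped and its normoxia replicate 2 stood apart: the A549 value was -0.0018 without that library and -1.01, then called, without normoxia replicate 1. The call was lost in RKO without hypoxia replicate 2 (-0.58) and in H460 without normoxia replicate 2 (-0.57) or hypoxia replicate 2 (-0.50). The RKO call was also lost with library size alone, by limma and in the joint fit of 12 libraries. The H460 call was also lost by DESeq2, with another scaling (RLE), with no filter and in the joint fit. Each of these 2 calls held in 7 of 13 alternatives.

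GAS5, ZFAS1 and SNHG5 were the members with no call in any line, and their exon levels per length were among the 5 highest of the members in each group. GAS5, whose RNA can bind the glucocorticoid receptor and which holds 10 box C/D snoRNAs, had 356 and 273 against 307 and 227 CPM in RKO, 151 and 255 against 158 and 222 CPM in A549, and 499 and 560 against 503 and 501 CPM in H460. Its groups overlapped in all lines, the A549 sign turned to 0.31 without normoxia replicate 2, and it had log2 fold changes of -0.30 ± 0.19, -0.11 ± 0.26 and -0.09 ± 0.09. ZFAS1, which holds the SNORD12 family, had 115 and 99.4 against 131 and 93.2 CPM in RKO, 106 and 199 against 95.4 and 132 CPM in A549, and 150.1 and 154 against 152 and 143 CPM in H460. It also overlapped in each line, with log2 fold changes of -0.44 ± 0.28 in A549 and -0.06 ± 0.08 in H460, and 0.01 ± 0.18 in RKO, near 0 and of either sign across the alternatives. SNHG5 had 198 and 167 against 155 and 116 CPM in RKO, 186 and 251 against 196 and 232 CPM in A549, where groups overlapped (-0.04 ± 0.20), and 159 and 167 against 207 and 193 CPM in H460. Its RKO hypoxia libraries lay below and its H460 hypoxia libraries above normoxia, with log2 fold changes of -0.49 ± 0.18 and 0.28 ± 0.09, neither called, while RKO was called lower without normoxia replicate 2 (-0.61) or hypoxia replicate 1 (-0.66), and scaling by library size alone turned the H460 value to -0.07.

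**Figure D3:**
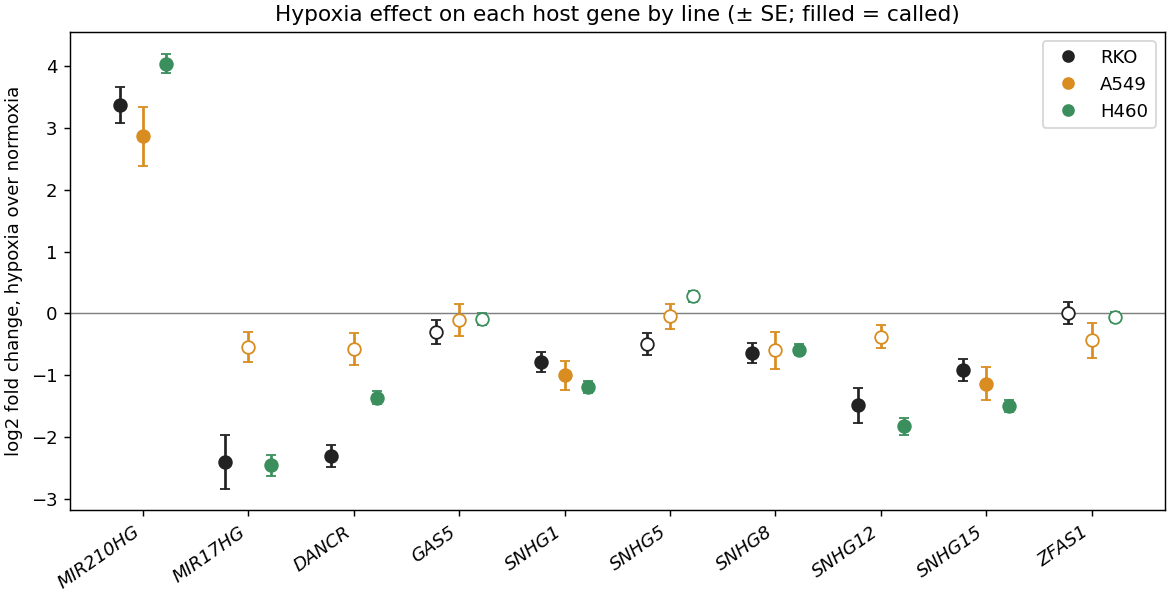
Log2 fold change of hypoxia over normoxia for each host gene by line (± SE, n = 2 libraries a group; filled points were called). MIR210HG lies at 2.87 to 4.04, SNHG1 and SNHG15 are filled below 0 in all lines, and GAS5, SNHG5 and ZFAS1 are open throughout.

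In all, 1 member was called higher and 6 lower in RKO, 1 higher and 2 lower in A549, and 1 higher and 6 lower in H460. Over all genes tested the call was higher for 18.8% and lower for 15.1% in RKO, higher for 2.22% and lower for 0.456% in A549, and higher for 24.6% and lower for 27.3% in H460. Because the members were chosen on this contrast, nothing is read from their counts against those shares. Of all calls in H460, 47.5% were higher with TMM factors and 26.5% with library size alone, which moved the median log2 fold change of all genes from -0.04 to -0.39.

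The snoRNA rows inside the hosts are separate rows of the table that the choice of members did not use, although they come from the same libraries and comparison. The table has 30 of them, 10 in GAS5 and 8 in SNHG1, all on the host strand. Their counts fell with hypoxia in RKO and H460, in hosts whose exon row was called lower and in those whose exon row was not. Of the 30 rows 27 were tested in RKO and 24 were called lower, and 30 were tested in H460 and 29 were called lower, the exception being SNORD50A. Of all genes tested 15.1% were called lower in RKO and 27.3% in H460. Of the other snoRNA rows of the table, counted below, 49.0% of those tested were called lower in RKO and 51.6% in H460. In A549 28 were tested and 0 were called lower at adjusted p under 0.1 by edgeR, against 0.456% of all genes, although 14 had an unadjusted p under 0.05 and all 28 had a negative log2 fold change. With the replicate number as a block, 15 A549 rows were called lower, and 26 in RKO. No row was called higher in any line. Some rows passed the filter on their normoxia libraries alone, with both hypoxia libraries under 0.5 CPM by library total. Among them were SNORA24, SNORA26, SNORD12B and SNORD81 in RKO and SNORD30, SNORA44, SNORD75, SNORD27 and SNORD12C in H460. The calls of such rows are labels and not tests. The counts above include them, so those counts are a description too. The shares of the other snoRNA rows come from the same filter. With every row that had a count kept, 27, 2 and 29 rows were called lower in RKO, A549 and H460. Without RKO normoxia replicate 2 the RKO count was 10, and without RKO hypoxia replicate 1 to 15, while in A549 it was 8 without hypoxia replicate 1.

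The snoRNA counts of each host were also summed into 1 row, a step chosen after the data were seen, and tested by edgeR over all rows. DANCR, SNHG8 and SNHG15 hold 1 snoRNA row each, so that summing added no reads there. In RKO both hypoxia libraries of SNORA26 (DANCR) and SNORA24 (SNHG8) lay under 0.5 CPM. Those 2 rows passed the filter through normoxia alone. In GAS5 the 10 snoRNA rows summed to 985 and 1688 counts in RKO normoxia and 367 and 449 in hypoxia. H460 had 2898 and 4228 against 904 and 1331 counts. A549 had 1981 and 1659 against 1326 and 827 counts. Hypoxia libraries lay below normoxia in each line, where GAS5 exon levels overlapped. The log2 fold change of the sum was -1.77 ± 0.25 in RKO (adjusted p = 0.000575), -1.44 ± 0.12 in H460 (adjusted p = 5.77e-07) and -0.67 ± 0.22 in A549 (adjusted p = 0.187).

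SNORD80 and SNORD44, both printed above, were among the rows with the most counts in GAS5. SNORD80 had 352 and 607 counts in RKO normoxia and 135 and 168 in hypoxia, a log2 fold change of -1.72 ± 0.30, and in H460 1007 and 1344 against 377 and 593 counts, or -1.05 ± 0.13. SNORD44 had 104 and 201 against 43 and 52 counts in RKO (-1.74 ± 0.38) and 419 and 615 against 86 and 141 in H460 (-1.95 ± 0.18). SNORD81 fell in H460 (-2.54 ± 0.25). Its RKO value was -1.76 ± 0.42, with no test, since there it passed the filter through normoxia alone.

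In SNHG5 the sum of SNORD50A and SNORD50B was 78 and 146 counts in RKO normoxia against 18 and 22 in hypoxia, 146 and 130 against 61 and 40 in A549, and 126 and 158 against 61 and 62 in H460. The log2 fold change was -2.54 ± 0.42 in RKO (adjusted p = 0.00119) and -0.97 ± 0.21 in H460 (adjusted p = 0.00117), and its A549 value was -1.35 ± 0.34 (adjusted p = 0.106). The 3 snoRNA rows of ZFAS1 summed to 90 and 145 against 37 and 36 counts in RKO (-1.75 ± 0.36, adjusted p = 0.00371) and to 197 and 339 against 69 and 98 in H460 (-1.44 ± 0.21, adjusted p = 6.49e-05). SNORA24 of SNHG8 had 42 and 61 against 19 and 14 counts in RKO (-1.71 ± 0.42) and 76 and 163 against 18 and 8 in H460 (-2.92 ± 0.42). In these 4 hosts the exon row had changed less than the snoRNA row in RKO and H460.

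In the other 4 hosts the exon row and the snoRNA sum lay closer together. In RKO the sums changed by -0.76 ± 0.22 in SNHG1, -1.65 ± 0.38 in SNHG12, -0.96 ± 0.40 in SNHG15 and -1.99 ± 0.46 in DANCR, against exon values of -0.78, -1.49, -0.92 and -2.30. In H460 they changed by -1.82 ± 0.13, -2.11 ± 0.20, -1.31 ± 0.21 and -2.00 ± 0.29 against -1.19, -1.82, -1.50 and -1.36. The snoRNA sum was called lower in all 8 hosts in RKO and in H460, where 15.1% and 27.3% of all genes tested were called lower, and in 0 of 8 in A549 by edgeR (6 with the replicate block, 3 by DESeq2, and 4 without hypoxia replicate 1). The RKO calls of DANCR and SNHG8 are labels and not tests, since their single row passed the filter through normoxia alone. In RKO the sum was called in 4 hosts without normoxia replicate 2.

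**Figure D4:**
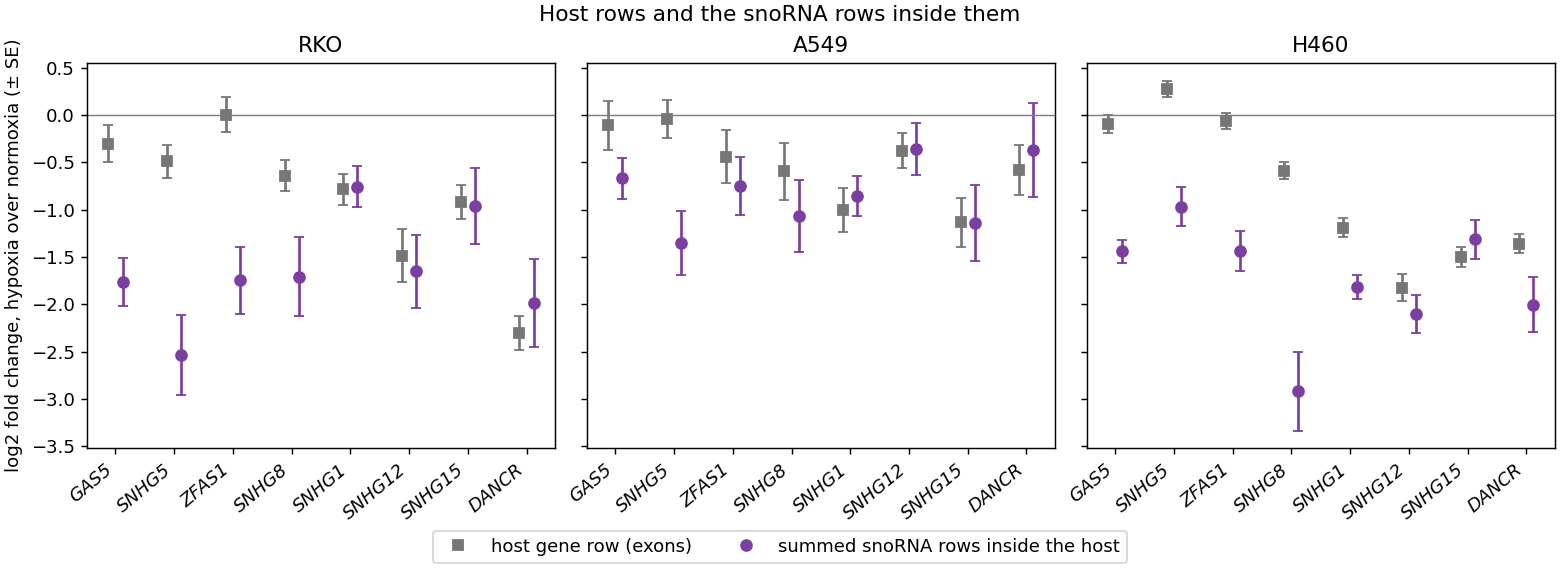
Log2 fold change (± SE, n = 2 libraries a group) of the host exon row (grey squares) and of the summed snoRNA rows inside it (purple circles), by line. In GAS5, SNHG5, ZFAS1 and SNHG8 the circles lie well below the squares in RKO and H460; for GAS5 in H460 they are -1.44 against -0.09.

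The number of snoRNA counts per 1000 counts of the host was also compared within each library. For GAS5 it was on average 114 in RKO normoxia and 41.1 in hypoxia, 236 against 154 in A549, and 214 against 84.1 in H460. The libraries of both groups did not overlap in RKO and H460 and overlapped in A549. In H460 the ratio was also lower in hypoxia without overlap for SNHG1 (183 against 119), DANCR (35.6 against 22.8) and SNHG12 (345 against 289), whereas in RKO and A549 the groups of these 3 hosts overlapped. For SNHG15 it was 32.7 against 31.9 in RKO, 55.7 against 51.5 in A549 and 79.4 against 89.9 in H460, with overlap in each line. These ratios use the host row on which members were chosen and carry no test. Mature snoRNAs have no poly(A) tail, and whether these reads came from mature snoRNA or from unspliced host RNA cannot be told apart in a count table. Among the other snoRNA rows of the table, 48 of 98 tested were called lower and 1 higher in RKO, 1 of 105 lower in A549, and 79 of 153 lower and 17 higher in H460.

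Of the 8 miRNA rows inside the hosts 1 passed the filter, MIR210 (chr11:568089-568198, minus strand), which was intronic in all 9 MIR210HG transcripts of the annotation. It had 3 and 4 counts in RKO normoxia and 25 and 52 in hypoxia, 4 and 4 against 36 and 52 in A549, and 9 and 3 against 55 and 106 in H460. Every hypoxia library lay above every normoxia library of its line. The row passed the filter on low counts through its hypoxia libraries alone, and its normoxia counts lay near the floor of 3 counts per library, so its fitted log2 fold changes of 3.55 ± 0.56 in A549, 3.36 ± 0.63 in RKO and 3.92 ± 0.46 in H460 depend on the prior count and are given with no test. It had 29.8 counts per 1000 MIR210HG counts in RKO normoxia and 26.9 in hypoxia, with overlap between the groups. The 6 miRNA rows of MIR17HG were at 0 in all 12 libraries. The deposited exon model of MIR17HG covers 5018 bases. Where it overlaps a miRNA row, the counting mode used gives a read that runs past that row to the host. A read wholly inside both is given to neither. These counts of 0 thus say nothing of the level of miR-17-92. Mature miRNAs were not measured here.

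The promoter of MIR210HG, 250 bases before to 50 after the start on GRCh38.p14 (chr11:568408-568707, minus strand, RefSeq), is shown since this was the member with the higher level in hypoxia. Capitals mark ACGTG, a form of the core of the hypoxia response element, which was searched on both strands and also lies inside CACGTG. The other form of that core, GCGTG, was not searched or counted, and this window holds it unmarked.
MIR210HG promoter: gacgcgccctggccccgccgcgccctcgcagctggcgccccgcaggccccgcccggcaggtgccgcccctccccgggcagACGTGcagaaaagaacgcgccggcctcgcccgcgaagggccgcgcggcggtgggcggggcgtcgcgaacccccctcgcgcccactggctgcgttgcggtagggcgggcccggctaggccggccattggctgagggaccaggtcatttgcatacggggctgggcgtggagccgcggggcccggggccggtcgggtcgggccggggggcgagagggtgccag
The motif began 170 bases before the start. RefSeq windows matched 9 of the 10 members, and ACGTG was found in 2, MIR210HG and SNHG8 (187 bases before the start), against 21.6% of 27305 promoter windows. CACGTG, which MYC also binds, was in 0 of the 9 windows against 7.43% of all. These letters describe the window and are not evidence of binding.

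GAS5, SNHG1 and ZFAS1 share their promoter region with a protein-coding gene on the other strand. SLC3A2, a subunit of amino acid transporters, starts 124 bases from SNHG1. It fell in H460 (log2 fold change -0.97 ± 0.10, adjusted p = 4.47e-06), with values of -0.84 ± 0.23 in A549 (adjusted p = 0.136, called lower with the replicate block) and -0.01 ± 0.15 in RKO, where SNHG1 itself was called lower. The hypoxia effect on SLC3A2 differed between RKO and H460 by 1.01 ± 0.26 (adjusted p = 0.0111). ZBTB37, 368 bases from GAS5, rose by 0.64 ± 0.12 in H460 (adjusted p = 0.000651), but with library size alone the value was 0.28 and was not called. It was also not called without H460 normoxia replicate 1 (0.49). ZNFX1, 41 bases from ZFAS1, was called in no line, with -0.04 ± 0.19 in A549, 0.01 ± 0.17 in RKO and 0.13 ± 0.11 in H460. Counts were made by strand.

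Per exon length the snoRNA hosts were among the more abundant RNAs. GAS5 averaged 528 RPKM in RKO normoxia, rank 96 of 16597 genes with a count, and 873 RPKM in H460 normoxia, rank 60 of 18444. The order in RKO normoxia was GAS5, SNHG5 (382 RPKM), SNHG1 (162), ZFAS1 (111), SNHG15 (87.3), DANCR (84.0), SNHG8 (60.6), SNHG12 (55.6), MIR17HG (6.14) and MIR210HG (1.62). In that order the 2 libraries of SNHG15 and DANCR overlapped, as did those of SNHG8 and SNHG12. In H460 normoxia SNHG8 (180 RPKM) stood above ZFAS1 (154) without overlap, and DANCR (85.7) and SNHG15 (80.5) again overlapped. In A549 normoxia SNHG5 (456 RPKM) averaged above GAS5 (340), but their libraries overlapped, and so did those of MIR17HG (3.97) and MIR210HG (2.53). In H460 hypoxia MIR210HG, at 43.4 RPKM, had passed DANCR (26.2), SNHG15 (22.3) and SNHG12 (14.3), and MIR17HG, at 1.53 RPKM, was the lowest.

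Differences between the lines in normoxia are another contrast than the one that chose the members, although they use the same normoxia libraries, and were tested by edgeR over 15595 genes. The normoxia values entered the choice of members, so the adjusted p-values of members are not independent of it and are given as a description. Of the 10 members 5 were called between A549 and RKO, 4 between H460 and RKO and 5 between H460 and A549, against 60.2%, 61.9% and 52.1% of all genes tested. GAS5 was highest in H460, by 0.75 ± 0.24 over RKO (adjusted p = 0.0114) and 1.38 ± 0.24 over A549 (adjusted p = 0.000194) on the log2 scale. SNHG8 was also highest in H460, by 1.60 ± 0.24 over RKO (adjusted p = 3.64e-05) and by 0.82 ± 0.24 over A549 (adjusted p = 0.00838), and A549 exceeded RKO by 0.79 ± 0.24 (adjusted p = 0.00902). DANCR was lowest in A549, with a difference of -1.30 ± 0.20 from RKO (adjusted p = 4.41e-05), and H460 exceeded A549 by 1.36 ± 0.20 (adjusted p = 4.22e-05). SNHG15 was also lowest in A549, with A549 minus RKO at -0.88 ± 0.20 (adjusted p = 0.00149) and H460 minus A549 at 0.80 ± 0.20 (adjusted p = 0.00393). GAS5 was also lower in A549 than in RKO (-0.63 ± 0.24, adjusted p = 0.0286).

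MIR17HG was higher in H460 than in RKO by 0.83 (adjusted p = 0.0570) and than in A549 by 1.45 (adjusted p = 0.00412). MIR210HG was higher in H460 than in RKO by 1.08 (adjusted p = 0.0410). SNHG1 was higher in A549 than in RKO by 0.74 (adjusted p = 0.00389). Each call of DANCR, the calls of GAS5 and MIR17HG between H460 and A549, that of SNHG8 between H460 and RKO and that of SNHG15 between A549 and RKO held whichever library was left out. The others rested on single libraries. MIR210HG between H460 and RKO was not called without RKO normoxia replicate 2 (0.68) or H460 normoxia replicate 1 (0.75), nor MIR17HG without RKO normoxia replicate 1 (0.60) or H460 normoxia replicate 2 (0.54), nor GAS5 without RKO normoxia replicate 2 (0.58). Between A549 and RKO, SNHG1 was 0.58 without RKO normoxia replicate 1 and 0.38 without A549 normoxia replicate 2, SNHG8 was 0.19 without that A549 library, and GAS5 was -0.42 without RKO normoxia replicate 1 and -0.30 without A549 normoxia replicate 1, none of them called. Without A549 normoxia replicate 1, SNHG8 (0.39) and SNHG15 (0.55) were not called between H460 and A549. SNHG5, SNHG12 and ZFAS1 were called between no lines with all libraries in the fit.

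Related genes were counted from lists chosen with earlier results of these data known, and each count is to be read beside the share of all genes tested that were called: 24.6% higher and 27.3% lower in H460, 18.8% and 15.1% for RKO, and 2.22% and 0.456% for A549. Those A549 shares come from the main fit, with 316 genes called higher and 65 lower. With the replicate block A549 had 1189 genes higher and 723 lower, and 1083 and 752 without hypoxia replicate 1. List counts in A549 under these 2 settings are to be read beside those larger numbers. Of the other noncoding snoRNA hosts (18 listed, 15 in the table), 9 of 13 tested fell in RKO, 1 of 13 in A549 (4 with the replicate block) and 8 of 14 in H460, and 0 rose. The median log2 fold change was -0.88, -0.40 and -0.88, with a median of all genes of 0.01, -0.01 and -0.04. SNHG4 fell in RKO (log2 fold change -1.71 ± 0.33) and H460 (-2.92 ± 0.10), SNHG17 in A549 (-0.99 ± 0.20) and H460 (-1.66 ± 0.10), and SNHG10 in RKO (-1.42 ± 0.29). The A549 count was 0 without A549 normoxia replicate 2 and 2 without hypoxia replicate 1. Among 46 protein-coding snoRNA hosts, 12 of 45 tested fell in RKO, 0 in A549 (4 with the replicate block, which also called 1 higher, and 6 without hypoxia replicate 1), and 15 rose and 8 fell in H460. In H460 EEF2, an elongation factor, rose by 1.14 ± 0.11 and TPT1 by 0.94 ± 0.10, and RABGGTB fell (-1.32 ± 0.11). NOP56, a core protein of box C/D particles and itself a snoRNA host, fell in RKO (-1.60 ± 0.26) and H460 (-2.78 ± 0.11), and HSPA8, a chaperone, fell in RKO (-1.76 ± 0.18). The 15 higher in H460 were 3 with library size alone, and 3 by limma.

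The list of proteins of the snoRNA particle and its assembly shares NOP56 and DKC1 with the list before. In this list 14 of 19 fell in RKO, 1 of 19 in A549 (6 with the replicate block or without hypoxia replicate 1, and 0 without normoxia replicate 1 or hypoxia replicate 2) and 13 of 19 in H460, and 0 rose. NOP58, a partner of NOP56, fell in RKO (-1.64 ± 0.25), and RRP9, which binds the U3 snoRNA, in A549 (-1.05 ± 0.25) and H460 (-2.56 ± 0.11). Medians were -1.03, -0.30 and -0.90.

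The other noncoding miRNA hosts (36 listed, 21 in the table) were mixed. Of 11 tested in RKO 2 rose and 2 fell, of 14 in A549 1 rose, and of 13 in H460 8 fell and 0 rose. With the replicate block 2 also fell in A549. Leaving out 1 library gave 1 to 3 higher and 0 to 4 lower in RKO, and 4 lower in H460 without normoxia replicate 2. The 2 lower in RKO were 0 by DESeq2, with library size alone and by limma with 0.1 or 1 added. H19, an imprinted RNA that carries miR-675, rose by 2.67 ± 0.48 in A549. Its A549 hypoxia libraries lay far apart (mean 21.4 CPM, SD 16.1), though both were above normoxia (mean 3.32 CPM). MIR155HG rose by 0.80 ± 0.27 in RKO, where MIR4458HG (-0.62 ± 0.27) and MIRLET7BHG (-0.83 ± 0.37) fell. MIR600HG (-1.88 ± 0.21) and DLEU2 (-1.25 ± 0.18), host of miR-15a and miR-16-1, fell in H460. The highest value among these 13 in H460 was -0.09, with MIR210HG at 4.04. Of 32 protein-coding miRNA hosts, 4 rose and 6 fell among 26 tested in RKO (2 rose without hypoxia replicate 1), 0 of 31 in A549 (4 rose and 1 fell with the replicate block) and 9 rose and 4 fell among 29 in H460. With library size alone that split turned to 4 higher and 13 lower. MCM7, a helicase subunit that carries miR-106b, miR-93 and miR-25, relatives of the MIR17HG miRNAs, fell in RKO (-1.05 ± 0.16). PPARGC1B, host of miR-378a, fell in RKO (-1.05 ± 0.20) and H460 (-3.43 ± 0.15), and LPP, host of miR-28, rose in both (0.97 ± 0.28 and 1.77 ± 0.09). SREBF2, host of miR-33a, rose in RKO (0.76 ± 0.16), and in H460 EVL, host of miR-342, rose (1.76 ± 0.09) and RCL1, host of miR-101-2, fell (-1.87 ± 0.15).

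Of 16 miRNA processing and effector proteins 5 fell and 0 rose in RKO, 0 were called in A549, and 5 rose and 4 fell in H460. DGCR8, the partner of DROSHA, fell in RKO (-0.77 ± 0.26) and H460 (-1.09 ± 0.13). XPO5, the exporter of precursor miRNAs, fell in H460 (-1.09 ± 0.09), where TNRC6C and AGO4 of the silencing complex rose by 1.97 ± 0.12 and 1.52 ± 0.10. RAN, the GTPase of nuclear transport, fell in RKO (-1.19 ± 0.16). The RKO count was 3 without hypoxia replicate 1 or with library size alone, and the H460 shares lay near those of all genes. Of 15 nonsense-mediated decay factors 2 rose and 3 fell in RKO, 0 were called in A549, and 3 rose and 1 fell in H460. The exonuclease XRN1 rose by 0.67 ± 0.16 in RKO and 1.41 ± 0.09 in H460 and CASC3 by 1.30 ± 0.09 in H460, while the exon junction protein MAGOH fell in both (-0.95 ± 0.17 and -0.95 ± 0.12). SMG9 and SMG8 act on the kinase of this pathway, and SMG9 rose by 0.76 ± 0.18 and SMG8 fell (-0.90 ± 0.20) in RKO. Without RKO hypoxia replicate 1 the 2 rises in RKO were not called.

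**Figure D5:**
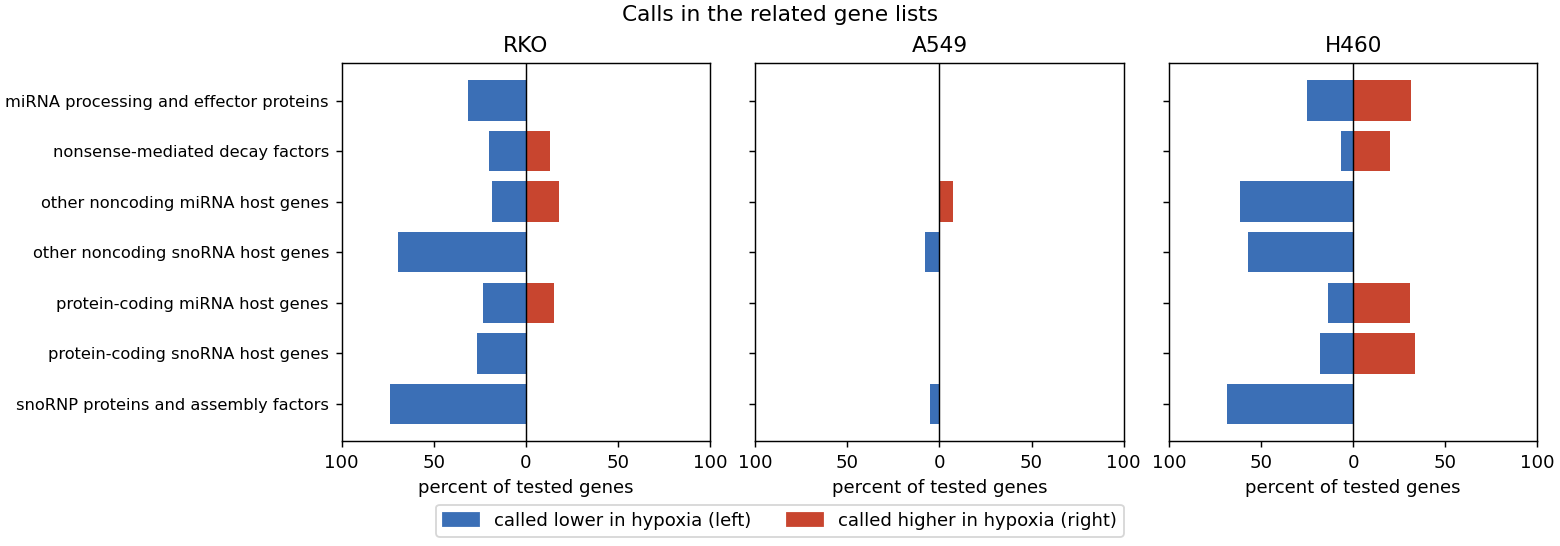
Share of tested genes in each related list called lower (blue, left) or higher (red, right) in hypoxia, by line. Calls in other noncoding snoRNA hosts and in snoRNP proteins are all lower (9 of 13 and 14 of 19 in RKO), while protein-coding snoRNA hosts have 15 higher and 8 lower in H460.

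The genes whose levels over the 12 libraries lay nearest were found by the root mean square difference of centred log2 CPM among 12423 genes. For MIR210HG they were P4HA1, a collagen prolyl hydroxylase (0.69), GPR146 (0.74) and LRP1 (0.82), with a median over all genes of 2.06. For MIR17HG they were SNORD60 (0.33), UTP20 (0.44), a factor in small ribosomal subunit processing, and NOP58 (0.49), with a median of 1.36. For DANCR they were NOP58 (0.36), SETD6 (0.40) and FASTKD3 (0.40), with a median of 1.11. These are descriptions over 12 libraries that share their lines and treatment.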

How the data were processed

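Poly(A)+ RNA of 12 libraries, 2 replicates in each of 6 groups named by cell line and oxygen, was measured. Per the paper's methods and the labels, the authors aligned reads to GRCh37/hg19 with TopHat2 2.0.13, removed alignments of low mapping quality, and deposited gene counts made with HTSeq 0.6.1 by strand in its intersection-nonempty mode. The authors also deposited RPKM values, which were the counts divided by exon length and by the summed gene counts.

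Here genes above 0.5 CPM in at least 2 libraries were tested with edgeR 4.0.16 (TMM factors, quasi-likelihood test, R 4.3.3) on the 4 libraries of a line, and lines in normoxia in 1 fit of all 12 libraries, as were differences of the hypoxia effect between lines. Printed CPM use TMM factors over all 12 libraries, and so differ slightly from the fits. Adjusted p-values run over all genes tested, and SE is the log2 fold change divided by the root of F. Calls need adjusted p under 0.1 and a fold change over 1.5. DESeq2 1.42.0 and limma 3.58.1 on log2(RPKM + 0.1) or log2(RPKM + 1), other scalings, no filter, a replicate block and leaving out each library were the alternatives. The code was tested on simulated data. Summing snoRNA rows and counting the other snoRNA rows were steps chosen after seeing the data.

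The members and lists were chosen with earlier results of these data known. Named were all members, up to 2 risen and 2 fallen genes of a list in a line, by size of change and with a mean of at least 100 counts, genes within 1000 bases head to head, small RNA rows inside a member, and the 3 nearest patterns. Same-numbered replicates deviated together between normoxia and hypoxia (r over genes of 0.375 in RKO, 0.392 in A549 and 0.177 in H460), so the numbers were taken to pair the libraries, and blocked values are given where they change a call. The main fits, with their SEs, calls and figures, nonetheless leave the pairs out. In A549 the snoRNA rows called lower were 0 without the block and 15 with it, so the low A549 counts depend on that choice. RefSeq sequence tables of GRCh38.p14 gave miRNAs and promoters, and the GRCh37 genome gave snoRNAs.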

Additional observations from a re-analysis of the deposited data

Results flagged for a closer look

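Some effects differed between lines. For SNHG5 every RKO hypoxia library lay below (log2 fold change -0.49) and every H460 hypoxia library above normoxia (0.28, or -0.07 with library size alone), a difference that was not tested since the gene was chosen on this contrast. Its snoRNA sum was tested and fell more in RKO than in H460, by -1.53 ± 0.47 (adjusted p = 0.0247, edgeR, fit of 12 libraries).

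In the same fit the snoRNA sum of GAS5 differed by -1.05 ± 0.32 between RKO and A549 (adjusted p = 0.0589) and between H460 and A549 by -0.77 ± 0.32 (adjusted p = 0.0847). That of SNHG1 differed by 1.11 ± 0.30 between RKO and H460 (adjusted p = 0.0125) and by -0.96 ± 0.30 between H460 and A549 (adjusted p = 0.0276). For H460 minus A549 the difference was -1.63 ± 0.61 in DANCR (adjusted p = 0.0603), -1.83 ± 0.63 in SNHG8 (adjusted p = 0.0431) and -1.75 ± 0.51 in SNHG12 (adjusted p = 0.0219). For snoRNA sums and neighbours, only differences with adjusted p under 0.1 are listed. RKO minus A549 was of like size but not listed in DANCR (-1.57 ± 0.63, adjusted p = 0.136) and SNHG12 (-1.25 ± 0.51, adjusted p = 0.140). These differences were not refitted with the replicate block or with a library left out.

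Of the neighbours, SLC3A2 differed by 0.89 ± 0.26 between RKO and A549 (adjusted p = 0.0540) and by 1.01 ± 0.26 between RKO and H460 (adjusted p = 0.0111), and ZBTB37 by 1.04 ± 0.32 between H460 and A549 (adjusted p = 0.0272).

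From the lists, HSPA8, a chaperone gene that hosts SNORD14 snoRNAs, fell in RKO (-1.76 ± 0.18) and rose in H460 by 0.94 ± 0.12, with a difference of -2.66 ± 0.65 (adjusted p = 0.00763). CTDSP1, a phosphatase gene that hosts miR-26b, had -0.68 ± 0.17 in RKO and 0.68 ± 0.10 in H460, and a difference of -1.31 ± 0.25 (adjusted p = 0.00150).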

How the results depend on the processing

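No called member changed direction under any alternative. With 2 libraries a group, A549 calls were the least stable. Members called lower in A549 went from 2 to 0 with library size only and with limma on log2(RPKM + 0.1), on log2(RPKM + 1) and on log2(RPKM + 0.1) without a filter, where the 1 called higher also went to 0 and RKO had 1 lower member, 1 snoRNA row and 1 other noncoding snoRNA host. The snoRNA rows called lower in A549, 0 as reported, were 4 by DESeq2, 2 with no filter on low counts, 15 with the replicate block, 6 and 5 by limma with 0.1 and 1 added, and 9 in the joint fit of 12 libraries. Hosts with a called snoRNA sum in A549 were 3 by DESeq2, 2 with no filter and 6 with the replicate block. Other noncoding snoRNA hosts lower in A549 were 4 with the replicate block, 2 in the joint fit and 0 by limma with 1 added or without a filter. The replicate block changed no member call and, beside the A549 counts given with the results, no other call by more than 1.5 times.

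Leaving out 1 library gave 5 to 7 members lower in RKO, 0 to 3 in A549 and 5 to 6 in H460, 10 to 23, 0 to 8 and 23 to 29 snoRNA rows lower, 4 to 8, 0 to 4 and 8 to 8 snoRNA sums lower, and 6 to 10, 0 to 2 and 7 to 8 other noncoding hosts lower. In all genes of A549, edgeR called 316 higher and 65 lower, DESeq2 608 and 263, the replicate block 1189 and 723, and the fit without hypoxia replicate 1 1083 and 752.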
